A study of Glycine max with 16 samples.

Results

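Plot 4 of this field experiment contributed 4 of the 16 leaf libraries, and transcript abundance in those 4 libraries was set against the 12 libraries of plots 1 to 3. The members were taken from the sample titles: all libraries of biological replicate 4 on one side, and all libraries of biological replicates 1, 2 and 3 on the other. Every library came from soybean (Glycine max) cv. 93B15, grown outdoors without an applied treatment and in reproductive development when sampled. Each of the 4 plots was sampled on its own August day at 8:00, 11:00, 14:00 and 17:00, and each library held the 3 leaflets of 1 uppermost, fully expanded leaf. Plot 4 is therefore 1 plot on 1 day and 4 leaves. A difference between field plots and a difference between sampling days cannot be told apart here, and the labels and methods do not tie a date to a plot. The main tests below take libraries, not plots, as units, and their spread mixes leaves with differences among plots 1 to 3. Fits with a term for each plot measure the spread between leaves of a plot. With 1 plot against 3, the smallest exact p that a comparison of plots can reach is 0.25.

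Soybean leaves carry out photosynthesis with light-harvesting proteins that bind chlorophyll and pass excitation energy to photosystems I and II. During seed fill they also export nitrogen to the pods. Leaf protein is then degraded, much of it by vacuolar proteases, and the nitrogen moves through the phloem mainly as amino acids such as asparagine. Soybean leaves hold a nitrogen reserve in vegetative storage proteins, named the stem 28 kDa and stem 31 kDa glycoproteins. The veins inside a whole leaflet contain xylem, whose thick secondary walls are built by cellulose synthases, xylan enzymes, laccases and fasciclin-like arabinogalactan proteins.

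Read counts were tested for 36059 genes that had at least 8 counts in at least 1 library. Total counts were 20518521 to 25691784 in plot 4 and 14968570 to 22424939 in plots 1 to 3, and the 10 most abundant genes took 4.96% to 7.35% and 5.91% to 11.2% of them. At 8:00, 11:00 and 14:00 plot 4 had the largest total of the 4 plots, and at 17:00 plots 1 and 3 had larger ones. Abundance is given as CPM, the count relative to the library's total after scaling by trimmed mean of M-values (TMM). A gene was called differentially expressed (DE) at an adjusted p under 0.05 in edgeR's quasi-likelihood test, with time point in the model, and an absolute log2 fold change of 1 or more. Fold changes are plot 4 minus plots 1 to 3 on the log2 scale (n = 4 and n = 12 libraries), and their standard errors (SE) are approximate, taken from the F statistic.

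In plot 4, 1184 genes were DE, of which 392 had higher and 792 had lower transcript abundance than in plots 1 to 3. That is 1.09% and 2.2% of the genes tested. Differences of 4-fold or more were found for 87 higher and 320 lower genes, and differences of 8-fold or more for 25 and 119. With library totals in place of TMM the split was even, at 617 higher and 618 lower, and the median log2 difference over all genes moved from 0.0163 to 0.158. Lower calls fell to 363 without the 11:00 library of plot 4, to 377 (206 higher) without its 14:00 library, to 297 (193 higher) without its 17:00 library, and to 513 without all of plot 2. When libraries of a plot were treated as correlated (random effect, limma), 280 higher and 249 lower genes passed. On plot means (limma) 0 genes passed in either direction, and 3508 had an unadjusted p under 0.05.

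The position of plot 4 was also counted hour by hour. Its library lay above the other 3 of the same hour at all 4 hours for 1230 genes (3.41% of those tested) and below them for 1212 genes (3.36%). Among the DE genes this held for 283 of the 392 higher and 500 of the 792 lower, counts to which the DE test itself contributes. The same counts were not made for plots 1 to 3, so these shares do not show that plot 4 stood apart more than another plot. In a principal component analysis of values centred on each hour, the first component took 27.18% of the variance and placed the plot 4 libraries between 46.4 and 92.5, against −77.2 to 39.4 for the others. The value of 46.4 in plot 4 and that of 39.4, in plot 3, were both from 8:00. Deviations from the hour means correlated at 0.235 to 0.536 between libraries of plot 4 (6 pairs, median 0.359) and at −0.0179 to 0.433 between libraries of the same plot among plots 1 to 3 (18 pairs, median 0.2). These correlations run across genes, which are not independent replicates.

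Pairs of plots were compared to see whether plot 4 differed from each other plot more than they differed from each other. Plot 4 differed from plot 1 by 1475 DE genes (4.09% of those tested), from plot 2 by 2048 (5.68%) and from plot 3 by 664 (1.84%). Among plots 1 to 3 the counts were 334 for plots 1 and 2 (0.926%), 56 for plots 1 and 3 (0.155%) and 24 for plots 2 and 3 (0.0666%). The lowest count with plot 4 exceeded the highest count without it in every setting run, down to 51 against 3 when the 14:00 libraries were left out. The 3 comparisons with plot 4 share its libraries. At 8:00 the picture was different: 8.248% to 17.56% of 29923 genes differed by at least 2-fold between plot 4 and another plot, against 12.62% to 18.97% among plots 1 to 3. Plot 4 was nearest to plot 1 (8.248%) and plot 3 (10.31%), below any pair among plots 1 to 3 at that hour, and the plot 2 library stood apart from all. At 17:00 the shares were 12.06% to 15.52% with plot 4 and 6.44% to 8.104% without it.

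**Figure D1:**
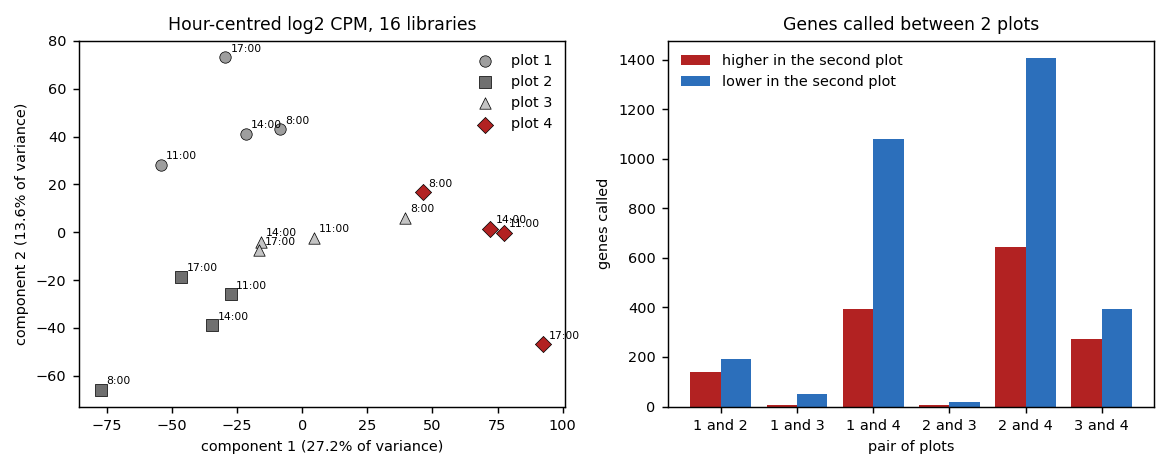
Position of the 16 libraries on the first 2 principal components of log2 CPM centred on each hour (left), and number of DE genes in each pair of plots, as bars from 0 (right). The plot 4 libraries hold the right end of the first component (27.18% of the variance), and the 3 pairs with plot 4 have 664 to 2048 DE genes against 24 to 334 for the pairs among plots 1 to 3.

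Gene names were available for part of the loci. Best matches come from the first 931 rows of the study's gene table, all of which the study had marked as variable between these same samples, so lists built from them are no independent evidence of a difference or its direction. Of these 931 genes, 92 were higher (9.88%) and 291 lower (31.3%) in plot 4, with a median log2 fold change of −1.24. Both these shares and those of all genes stand as the background for the lists described next. The tables give no coordinates. The chromosome is part of each locus name, so Glyma.08G194900 lies on chromosome 8 (Williams 82 assembly 2, annotation 1). DE genes lay on all 20 chromosomes. The higher share ran from 0.767% of the genes tested on chromosome 20 to 1.37% on chromosome 19, and the lower share from 1.53% on chromosome 18 to 2.86% on chromosome 12.

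Genes for nitrogen handling included some of the largest increases in plot 4. Of 24 nitrogen assimilation and transport genes tested, 8 were higher (33.3%) and 4 lower (16.7%), and the median log2 fold change was 0.03. Over all named rows 9.88% were higher and 31.3% lower, so the higher share was above this background and the lower share under it. The called member with the largest difference, Glyma.20G036300, matched to a rice protein, had 7.42, 2.38, 2.32 and 1.83 CPM in plot 4. Elsewhere it had 0 to 2.32 CPM (3.37 ± 0.46, edgeR adjusted p = 0.000783), so the groups overlapped. Asparagine synthetase makes the amide amino acid in which nitrogen is exported. Its gene Glyma.14G195000 had 36.97, 50.85, 88.8 and 40.53 CPM in plot 4 at 8:00, 11:00, 14:00 and 17:00. In the other 12 libraries it ranged from 0.917 to 14.92 CPM with a median of 5.89, so every plot 4 library lay above all of them. The log2 fold change was 3.03 ± 0.28 (SE, edgeR adjusted p = 5.63e-05). A peptide transporter, Glyma.13G116900, had 21.71, 25.84, 38.65 and 50.62 CPM in plot 4 and 2.92 to 10.14 CPM elsewhere (median 7.37). Again the groups did not overlap, and the log2 fold change was 2.31 ± 0.15 (edgeR adjusted p = 9.73e-07).

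Other transporters of this list had their highest value at 17:00. A second peptide transporter, Glyma.18G127200, had 3.37, 6.28, 29.03 and 94.12 CPM in plot 4, and the other libraries held 0.588 to 16.0 CPM (log2 fold change 2.71 ± 0.40, edgeR adjusted p = 0.00135). The nitrate and chloride transporter Glyma.10G276700 reached 341.8 CPM at 17:00 in plot 4 from 32.96 CPM at 8:00. Elsewhere it ranged from 6.84 to 114.0 CPM, and its log2 fold change was 1.61 ± 0.26. Its rise over the day was shared: the difference of 17:00 from 8:00 was 3.37 on the log2 scale in plot 4 and 2.54 to 3.62 in the other plots. Both overlapped the other plots when hours were pooled, and in both plot 4 was the highest of the 4 plots at each hour.

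The 4 lower nitrogen genes included enzymes that break amino acids down. L-asparaginase, which hydrolyses asparagine, is encoded by Glyma.14G086300. It had 140.6, 94.74, 39.46 and 18.9 CPM in plot 4, against 26.65 to 631.4 CPM elsewhere (log2 fold change −1.72 ± 0.47, edgeR adjusted p = 0.0407). That call was lost under 13 of 22 alternatives. Arginase (Glyma.03G028000) was scarce in both groups, at 0.0722 to 0.348 CPM in plot 4 and up to 8.10 CPM elsewhere, and its call was lost under 10 of 22 alternatives. The remaining members that were lower were an amino acid and polyamine transporter (Glyma.09G238000, call lost under 13 of 21) and a lysine and histidine transporter (Glyma.01G084800).

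Proteolysis genes differed in both directions in plot 4, abundant ones included. Among 25 genes for chlorophyll breakdown and leaf proteolysis, 4 were higher (16%) and 8 lower (32%), with a median of −1.49. Over all named rows 9.88% were higher and 31.3% lower, so the lower share was near this background. The vacuolar processing enzyme Glyma.14G092800, a vacuolar protease that cuts after asparagine, had 538.9, 643.5, 1397 and 4905 CPM in plot 4. The other libraries held 117.3 to 477.3 CPM (median 215.9), all below the lowest plot 4 library. Its log2 fold change was 2.45 ± 0.25 (edgeR adjusted p = 0.000152). An asparaginyl endopeptidase of the same enzyme family, Glyma.17G230700, had 211.1, 452.4, 1466 and 5042 CPM, and plots 1 to 3 ranged from 75.21 to 672.2 CPM (log2 fold change 1.99 ± 0.24, edgeR adjusted p = 0.000342). The difference of 17:00 from 8:00 was 3.19 on the log2 scale for the first gene in plot 4 and 0.78 to 1.21 in the other plots, and 4.58 against 2.64 to 3.04 for the second. The interaction of hour and plot 4 was not called for either gene.

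Stay-green proteins start chlorophyll breakdown by removing its magnesium, and the 2 genes listed went in opposite directions. Glyma.01G214600 had 73.05, 85.1, 106.2 and 61.66 CPM in plot 4 and 10.46 to 45.83 CPM elsewhere (median 26.82), without overlap (log2 fold change 1.60 ± 0.26, edgeR adjusted p = 0.00241). Glyma.17G132900 was at or below 0.579 CPM in plot 4 and reached 12.6 CPM elsewhere (−3.95 ± 0.83, edgeR adjusted p = 0.011), a call lost without the 11:00 library (adjusted p = 0.0618) or the 17:00 library (adjusted p = 0.0615) of plot 4. Cysteine proteinases were also divided. Glyma.15G177800 had 1748 to 10040 CPM in plot 4 and 481.2 to 4011 CPM elsewhere (1.20 ± 0.27), with the call lost under 9 of 22 alternatives. Glyma.14G085600 had 61.25 to 749.5 CPM in plot 4 and 412.1 to 2347 CPM elsewhere (−1.96 ± 0.38), with the call lost without the 11:00 libraries (adjusted p = 0.0675) or the 14:00 libraries (adjusted p = 0.0654) of all plots. Other lower members were a subtilisin-like protease (Glyma.18G250100, −4.21 ± 0.88, lost without the 17:00 library of plot 4 at an adjusted p of 0.0763) and an aspartic proteinase (Glyma.15G123800, −3.05 ± 0.49). With libraries of a plot treated as correlated (limma), the adjusted p of Glyma.17G132900, Glyma.18G250100, Glyma.15G123800 and Glyma.15G177800 were 0.196, 0.0926, 0.0623 and 0.0693.

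**Figure D2:**
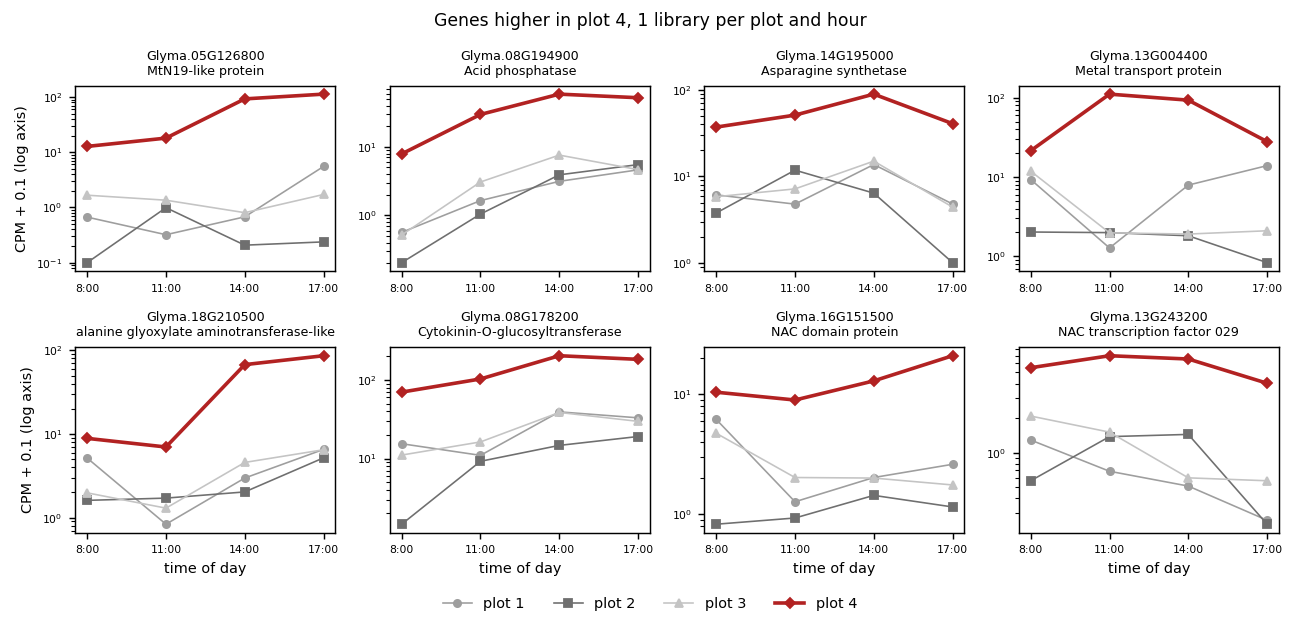
Transcript abundance by hour in each plot for 8 genes that were higher in plot 4 (log axis of CPM with a small constant added; 1 library per plot and hour, so no error bar; red line plot 4, grey lines plots 1 to 3). The plot 4 line lies above the other 3 at every hour in each panel; for Glyma.14G195000, asparagine synthetase, its lowest value is 36.97 CPM and the highest value elsewhere is 14.92 CPM.

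NAC domain transcription factors, a large plant family with members that control senescence and others that control secondary walls, were called in both directions. Of 13 tested, 5 were higher and 4 lower (median 1.35). The 5 higher genes did not overlap the other plots in any library, which their call partly fixes. Plot 4 lay above the other 3 libraries at all 4 hours for these 5, against 77 of the 931 named rows and 3.41% of all genes tested. Glyma.12G221400 was nearly flat over the day in plot 4, at 25.5, 24.9, 28.07 and 25.29 CPM, against 2.48 to 9.08 CPM elsewhere (median 5.37; log2 fold change 2.31 ± 0.18, edgeR adjusted p = 6.99e-06). Glyma.16G151500 had 10.33, 8.88, 12.86 and 20.9 CPM in plot 4 and 0.729 to 6.09 CPM elsewhere (2.74 ± 0.36), and Glyma.13G243200 had 3.93 to 6.89 CPM against 0.138 to 1.98 CPM (2.94 ± 0.35). For Glyma.02G070000 and Glyma.08G173400 the log2 fold changes were 2.48 ± 0.36 and 2.27 ± 0.26. The 4 lower NAC genes differed in abundance. Only 1 of them is counted when genes must reach 1 CPM in 4 libraries, and it is the gene matched to a NAC factor that promotes secondary wall thickening (Glyma.07G050600). It had 1.05, 0.541, 0.348 and 0.0913 CPM in plot 4 and 1.51 to 6.61 CPM elsewhere (median 3.33), without overlap (−2.93 ± 0.44, edgeR adjusted p = 0.00144). The other 3, Glyma.12G206900, Glyma.06G288500 and Glyma.13G294000, averaged under 1 CPM in both groups.

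Most secondary wall genes were lower in plot 4. Of 62 tested, 46 were lower and 0 higher, and the median log2 fold change was −3.09, against 0.02 over all genes and −1.24 over the 931 named rows. The lower share is 2.2% of all genes and 291 of the 931. Plot 4 lay below the other 3 libraries at all 4 hours for only 21 of the 62, against 178 of the 931. Fasciclin-like arabinogalactan proteins gave 11 lower of 16 tested, cellulose synthases 8 of 10, laccases 7 of 10, trichome birefringence-like proteins, which acetylate wall polysaccharides, 5 of 9, COBRA-related proteins 4 of 4, and IRX15-like proteins, which act in xylan synthesis, 3 of 3. The fasciclin-like gene Glyma.12G173800 had 0.548, 0.866, 0.811 and 0.320 CPM in plot 4 and 0.731 to 24.68 CPM elsewhere (median 9.31; −3.93 ± 0.61, edgeR adjusted p = 0.00184). Cellulose synthase Glyma.06G065000 had 1.56, 1.23, 1.58 and 0.411 CPM in plot 4 and 2.04 to 36.58 CPM elsewhere (median 15.12; −3.80 ± 0.60, edgeR adjusted p = 0.0021). The lowest values outside plot 4 for both genes came from 8:00, where the plot 3 library was close to that of plot 4. With libraries of a plot treated as correlated, the adjusted p of these 2 genes were 0.0538 and 0.0614 (limma).

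Most wall genes were low in all plots, which limits single values. Only 8 of the 62 averaged 10 CPM or more in plots 1 to 3, and 6 of these were lower. The largest fitted differences of the list belonged to genes nearly without reads in plot 4: laccase Glyma.07G134100 reached 0.0422 CPM there and 2.19 CPM elsewhere, fasciclin-like Glyma.03G180000 0.108 and 4.19 CPM, and galactomannan galactosyltransferase Glyma.01G195000 0.0386 and 1.15 CPM. Their calls were lost under 14 of 21, 4 of 22 and 7 of 21 alternatives. Summed over the list, plot 4 had 815.8, 393.1, 636.1 and 177.4 CPM, overlapping the 358.6 to 2757 CPM of the other plots. The value of 358.6 CPM was that of plot 3 at 8:00, so plot 4 was not lowest at that hour. From 11:00 on plot 4 had the lowest sum. In bulk leaf tissue, fewer cells of a type and less RNA per cell cannot be told apart, so these values do not separate less vein tissue in a leaf from lower transcript abundance in the same tissue. Without plot 1, plot 2 or plot 3, 34, 35 and 49 members were lower.

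Of 35 genes for wall loosening and pectin modification, 9 were lower (25.7%) and 0 higher, with a median of −1.43. This lower share is under the 31.3% of all named rows, and 26 members were not called. Alpha-expansin Glyma.19G024200, a protein that loosens walls during growth, was at 0 to 0.193 CPM in plot 4 and 0.313 to 5.59 CPM elsewhere (−4.49 ± 0.82, edgeR adjusted p = 0.00523, 0.0517 without the 11:00 libraries of all plots, and 0.0655 in limma with libraries of a plot treated as correlated). A pectin methylesterase inhibitor (Glyma.05G068800) and a gibberellin-regulated protein (Glyma.09G238300) were at most 0.0361 and 0.193 CPM in plot 4, and their calls were lost under 15 of 21 and 8 of 22 alternatives. YABBY factors set the upper and lower sides of a leaf. The YABBY gene Glyma.17G138200 had 1.14, 0.361, 0.116 and 0.0913 CPM in plot 4, below the other 3 libraries at each hour, with its highest value at 8:00. Its log2 fold change was −2.63 ± 0.31 (edgeR adjusted p = 0.000311).

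Light-harvesting and photosystem genes were lower in plot 4 at nearly every hour. Of 15 tested, 13 were lower and 0 higher, with a median of −1.69, and 14 lay below the other 3 libraries at all 4 hours. That position was found for 178 of the 931 named rows and 3.36% of all genes tested. With library totals in place of TMM 10 were lower, and without plot 2 also 10. The largest differences came from genes of the photosystem II type I chlorophyll a/b-binding protein on chromosome 16. Glyma.16G165500 had 2.15, 6.06, 3.55 and 3.88 CPM in plot 4 and 5.48 to 70.09 CPM elsewhere (median 35.64; −3.12 ± 0.42, edgeR adjusted p = 0.000775). Glyma.16G165200 had 0.593 to 4.98 CPM in plot 4 and 4.59 to 49.95 CPM elsewhere (−3.45 ± 0.54). These loci lie close together and carry the same match, so reads may be shared between copies and their separate values are uncertain.

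The abundant light-harvesting genes differed by less. Glyma.05G128000 had 1156, 3606, 3284 and 1609 CPM in plot 4 and 1395 to 8669 CPM elsewhere (median 4353; −1.03 ± 0.22, edgeR adjusted p = 0.0133), close to the fold threshold. With a term for each plot it was at −0.998, and its call was lost under 13 of 22 alternatives. Glyma.02G305400, a type II protein, had 36.25, 117.5, 97.41 and 50.8 CPM against 53.83 to 565.9 CPM (−1.77 ± 0.29, edgeR adjusted p = 0.00275). Photosystem I subunit O, through which light-harvesting proteins dock, is encoded by Glyma.11G181100. It had 43.67 to 84.85 CPM in plot 4 and 82.11 to 406.3 CPM elsewhere (−1.63 ± 0.36, edgeR adjusted p = 0.0139), and its call was lost without the 11:00 library (adjusted p = 0.0664) or the 14:00 library (adjusted p = 0.059) of plot 4. Photosystem genes discussed in the study's text were closer to the other plots. Those for Psb28 (Glyma.10G040600 and Glyma.13G127200) and PsaK (Glyma.09G087700) passed the adjusted p, at −0.69 ± 0.14, −0.63 ± 0.13 and −0.94 ± 0.19, without reaching the fold threshold. PsbD (Glyma.01G153500) was at −0.03 ± 0.29.

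These light-harvesting genes also served as the green leaf check: 12 of the 13 leaf markers are members of both lists. They summed to 7897 to 17090 CPM in plot 4 and 14120 to 36740 CPM elsewhere, so green leaf transcripts were abundant in every library. Of 8 markers of seed, root, nodule, pollen or sieve tube tissue, 1 was higher and 2 lower, and they summed to 43.0 to 231.5 CPM in plot 4 and 25.68 to 461.3 CPM elsewhere. The higher one, Glyma.07G251300, is a CASP-like protein, a family of membrane proteins found in many organs; it had 20.66, 42.26, 83.08 and 206.1 CPM in plot 4 (1.65 ± 0.22). The lower ones were matched to pollen proteins (Glyma.06G051500 and Glyma.04G104600), and their calls were lost under 16 and 15 of 22 alternatives, library totals included. Of 40 genes that collect ribosomal RNA or organelle reads, 2 were higher (Glyma.10G143200 and Glyma.06G052000, calls lost under 11 and 6 of 22 alternatives) and 0 lower. Their summed share was 0.182% to 2.45% in plot 4 and 0.163% to 2.56% elsewhere, highest in plot 4 at 17:00.

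**Figure D3:**
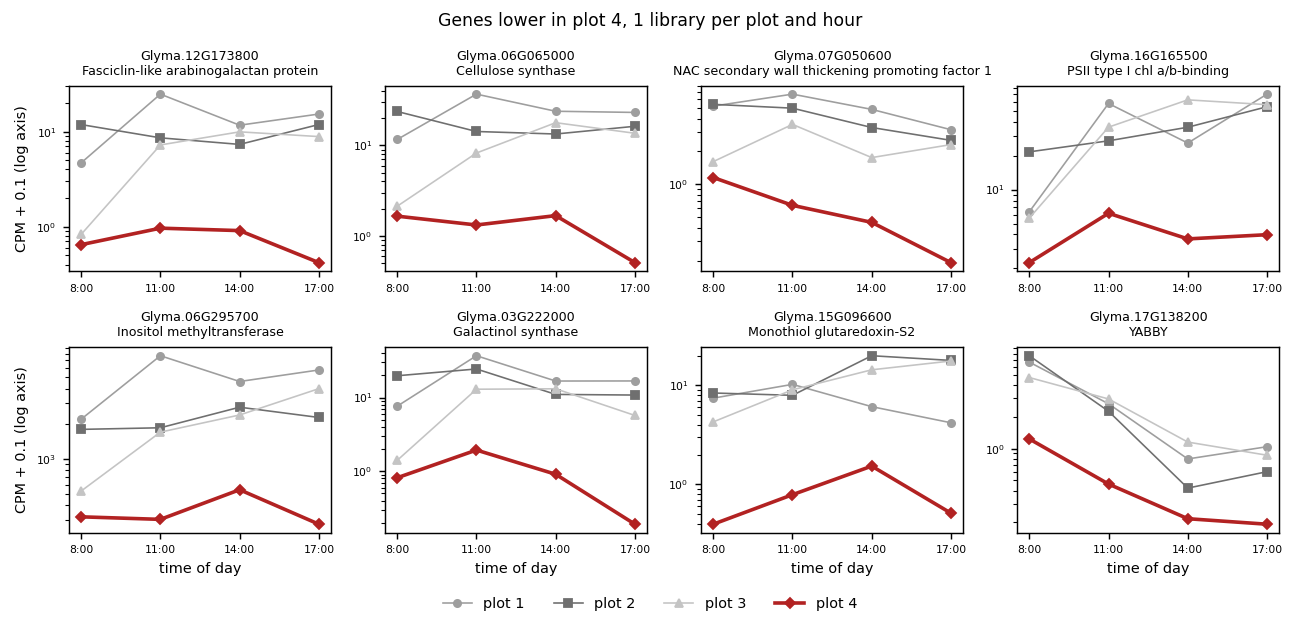
Transcript abundance by hour in each plot for 8 genes that were lower in plot 4 (log axis of CPM with a small constant added; 1 library per plot and hour, so no error bar; red line plot 4, grey lines plots 1 to 3). Plot 4 lies lowest at every hour in each panel, and at 8:00 plot 3 comes close to it for the wall genes; cellulose synthase Glyma.06G065000 stayed at or below 1.58 CPM in plot 4.

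Genes for abscisic acid, osmolytes and dehydration were mixed in sign. Of 16 tested, 5 were lower and 2 higher, with a median of 0.19 that changed to −1.57 when genes had to reach 1 CPM in 4 libraries and to −0.10 without plot 3. The lower share, 31.2%, is near the 31.3% of all named rows. Summed, the list had 2033, 1524, 1858 and 871.1 CPM in plot 4 and 2455 to 18190 CPM elsewhere, without overlap. This sum mostly restates 4 abundant lower members described next (Glyma.06G295700, Glyma.12G217400, Glyma.12G109800 and Glyma.05G180600, with means of 3133, 2475, 1439 and 1072 CPM in plots 1 to 3) and not the list as a whole. Galactinol synthase makes the sugar donor for raffinose. Its gene Glyma.03G222000 had 0.717, 1.84, 0.811 and 0.0913 CPM in plot 4 and 1.31 to 36.87 CPM elsewhere (median 12.97; −4.14 ± 0.64, edgeR adjusted p = 0.00167, and 0.0672 in limma with libraries of a plot treated as correlated). Inositol methyltransferase, which leads to the methylated inositols stored in legume leaves, was lower for both of its genes. Glyma.06G295700 had 317.5, 301.9, 542.6 and 274.3 CPM in plot 4 and 528.7 to 7690 CPM elsewhere (median 2324; −3.003 ± 0.53, edgeR adjusted p = 0.00413). Glyma.12G109800 had 260.1, 316.1, 470.0 and 140.4 CPM against 590.9 to 3243 CPM, without overlap (−2.24 ± 0.31, edgeR adjusted p = 0.000806).

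The enzyme that forms inositol phosphate from glucose 6-phosphate had the same sign. Myo-inositol-1-phosphate synthase Glyma.05G180600 had 131.2 to 385.8 CPM in plot 4 and 276.3 to 2555 CPM elsewhere (−1.89 ± 0.38, edgeR adjusted p = 0.00898). That call was lost without the 11:00 library (adjusted p = 0.0545) or the 17:00 library (adjusted p = 0.0574) of plot 4. The fifth lower gene was Glyma.12G217400, matched to Sali3-2, a soybean protein first found under aluminium stress. It had 1067, 498.5, 267.1 and 164.7 CPM in plot 4 and 712.4 to 4127 CPM elsewhere (−2.53 ± 0.48, edgeR adjusted p = 0.00622; 0.0556, 0.0668 and 0.0528 without the 11:00, 14:00 or 17:00 libraries of all plots). It sits in a run of 3 neighbouring lower loci, Glyma.12G217300 to Glyma.12G217500. The 2 higher genes, for a CPRD2 protein (Glyma.05G124900) and xanthoxin dehydrogenase (Glyma.03G222700), an enzyme of abscisic acid synthesis, were low in both groups, with log2 fold changes of 2.34 and 2.11.

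Vegetative storage proteins were lower, by similar amounts for both genes listed. Stem 28 kDa glycoprotein Glyma.07G014500 had 5203, 1871, 1723 and 571.3 CPM in plot 4, against 4224 to 12900 CPM elsewhere (median 7746; −1.94 ± 0.39, edgeR adjusted p = 0.00905). Stem 31 kDa glycoprotein Glyma.08G200100 had 1640, 573.6, 589.6 and 190.0 CPM against 983.1 to 3727 CPM (median 2732; −1.95 ± 0.42, edgeR adjusted p = 0.013). At 8:00 both lay within the range of the other 3 libraries of that hour, and from 11:00 on both lay below it. Single libraries mattered here: the first call was lost without the 11:00 library of plot 4 (adjusted p = 0.0536), and the second without its 11:00, 14:00 or 17:00 library (adjusted p = 0.0735, 0.068 and 0.0719) or without plot 2 (adjusted p = 0.0535). Over the 15 storage, lipoxygenase and Kunitz inhibitor genes, 3 were lower and 1 higher (median −0.80). This lower share, 20%, is under the 31.3% of all named rows. The third lower gene was 1 of 5 lipoxygenases (Glyma.07G006900, −1.06), and the higher one a scarce trypsin inhibitor (Glyma.10G184600, 2.90 ± 0.43).

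**Figure D4:**
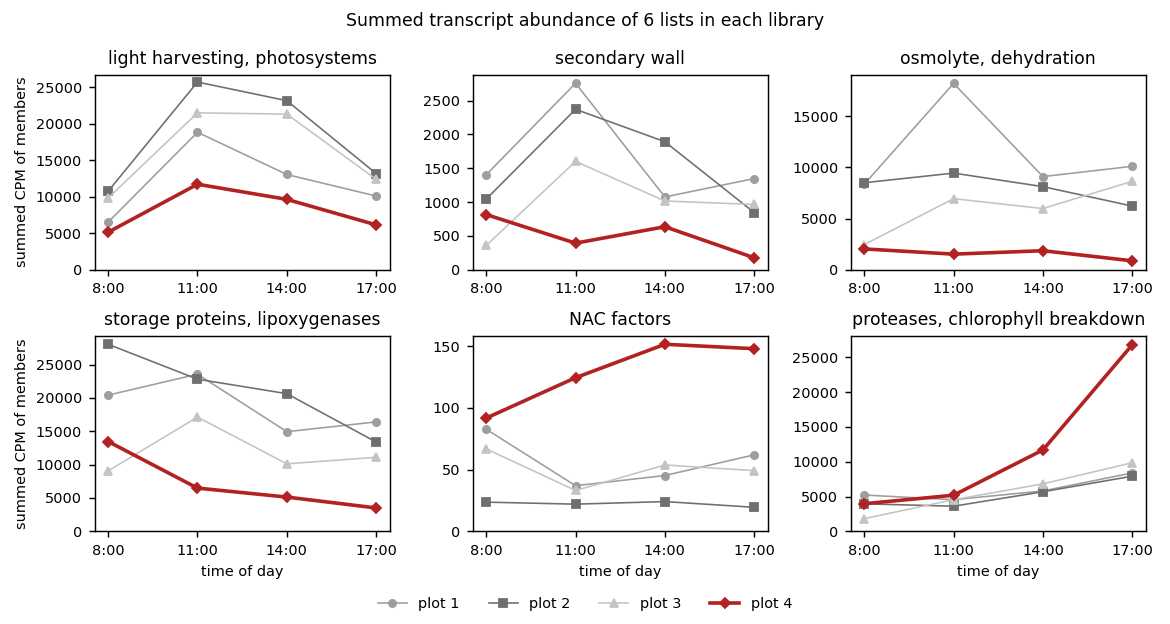
Summed transcript abundance (CPM) of 6 gene lists in each library by hour (1 library per plot and hour, so no error bar; red line plot 4, grey lines plots 1 to 3). The plot 4 sum for abscisic acid, osmolyte and dehydration genes stays at or below 2033 CPM, under every other library and mostly through 4 abundant genes, and the NAC sum of 91.68 to 151.4 CPM stays above the 19.48 to 82.63 CPM elsewhere.

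Phosphatase and metal genes held some of the largest single differences without a common direction in their lists. Acid phosphatases release phosphate from organic compounds. Glyma.08G194900 had 7.80, 29.67, 58.8 and 52.12 CPM in plot 4 and 0.104 to 7.49 CPM elsewhere (median 3.01), without overlap (3.83 ± 0.24, edgeR adjusted p = 9.73e-07). It was the only higher gene of 17 in the phosphate list, where 3 were lower and the median was −0.47. Both shares, 5.88% and 17.6%, are under the 9.88% and 31.3% of all named rows. The lower ones were the acid phosphatases Glyma.03G166500 and Glyma.07G014600, with calls lost under 11 of 21 and 10 of 22 alternatives, and an SPX domain gene, Glyma.09G263400, of a family that senses phosphate.

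In the metal list 3 of 9 were higher (33.3%, against 9.88% of all named rows) and 0 lower, yet the median was −0.81. The 5 ferritins, which store iron, had negative estimates and 0 passed. Glyma.13G004400, matched to a metal transport protein, had 21.33, 110.6, 92.89 and 27.8 CPM in plot 4 and 0.733 to 13.8 CPM elsewhere (median 1.91), without overlap (4.00 ± 0.70, edgeR adjusted p = 0.00404; 0.067 and 0.0625 without the 11:00 or 14:00 libraries of all plots). A second gene with that match, Glyma.20G063100, had 10.03, 35.08, 23.32 and 5.07 CPM (2.56 ± 0.67), and Glyma.13G186600, matched to a zinc-induced facilitator of Arabidopsis, had 36.5 CPM at 8:00 and 5.52 to 11.3 CPM later (1.77 ± 0.42). The last 2 calls were lost under 10 and 7 of 22 alternatives; that for Glyma.13G186600 was lost without any 1 of the 4 plot 4 libraries (adjusted p = 0.0585, 0.106, 0.0717 and 0.0607 from 8:00 on).

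Outside the lists, the largest increases also covered metabolism. Glyma.05G126800, matched to an MtN19-like protein of pea, had 12.65, 17.94, 92.5 and 112.8 CPM in plot 4 and 0 to 5.42 CPM elsewhere (median 0.639; 5.58 ± 0.58, edgeR adjusted p = 0.000152). It opens a run of 3 adjacent higher loci that ends at Glyma.05G127000. Glyma.18G210500, matched to an alanine glyoxylate aminotransferase, had 8.77, 6.89, 67.41 and 86.17 CPM in plot 4 and 0.735 to 6.45 CPM elsewhere (3.34 ± 0.35). A cytokinin glucosyltransferase match, Glyma.08G178200, of an enzyme class that attaches glucose to this growth hormone, had 70.1, 103.2, 204.2 and 183.6 CPM against 1.35 to 39.22 CPM (2.88 ± 0.34). All 3 separated plot 4 from every other library. These genes were chosen partly because plot 4 lay above the other 3 at all 4 hours, so their separation largely restates the choice. Chosen in the same way and also without overlap were Glyma.03G226800, a cytochrome P450 (88.87 to 171.9 CPM against 1.98 to 42.01 CPM, 2.87 ± 0.44), and Glyma.14G004500, of the ABC1 family (10.25 to 23.51 CPM against 0.107 to 3.70 CPM, 4.02 ± 0.40).

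The same ranking named 2 more higher genes that rest on single libraries. Glyma.01G055700, of the anion exchange family (3.46 ± 0.70), and the unnamed locus Glyma.02G114100 (3.16 ± 0.65) both peaked at 11:00 and 14:00 in plot 4. Their calls were lost without the 11:00 library (adjusted p = 0.0826 and 0.0886) or the 14:00 library (adjusted p = 0.0715 and 0.0808) of plot 4.

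Among the largest decreases were redox and defence genes. Monothiol glutaredoxin-S2, a small protein that reduces disulfides, was matched by Glyma.15G096600 and Glyma.17G023900. The first had 0.295, 0.686, 1.43 and 0.411 CPM in plot 4 and 4.09 to 19.84 CPM elsewhere (−3.91 ± 0.48, edgeR adjusted p = 0.00042), and the second 0.320 to 1.31 CPM against 2.04 to 33.67 CPM (−3.23 ± 0.55, edgeR adjusted p = 0.00334). Neither overlapped. Apyrase Glyma.16G043500, which hydrolyses nucleotides, had 0.965 to 2.07 CPM in plot 4 and 5.43 to 32.69 CPM elsewhere (−3.60 ± 0.46). The unnamed locus Glyma.19G142700 (−3.54 ± 0.51) and the MLP-like gene Glyma.15G217100 (−3.46 ± 0.67) also did not overlap, and the second lost its call without the 11:00 libraries (adjusted p = 0.0564) or the 14:00 libraries (adjusted p = 0.0562) of all plots. A glycine-rich protein gene, Glyma.15G238600 (−3.49 ± 0.94), lost its call under 13 of 22 alternatives, and 1 library outside plot 4 held 173.5 CPM.

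Of 18 pathogenesis-related genes 7 were lower and 0 higher (median −1.15, near that of all named rows), and 3 were lower when plot 1 was left out. The lower share was 38.9%, against 31.3% of all named rows. Endochitinases, which cut fungal chitin, had 1.32 to 4.22 CPM in plot 4 and 3.81 to 29.38 CPM elsewhere for Glyma.09G038500 (−2.36 ± 0.44, edgeR adjusted p = 0.00583, and 0.0582 without the 14:00 libraries of all plots). Glyma.15G143600, the second endochitinase, was at −2.95 ± 0.59, and its call was lost without the 17:00 library of plot 4 (adjusted p = 0.0534) or with libraries of a plot treated as correlated (limma adjusted p = 0.102). Of 7 flavonoid genes 2 were lower and 0 higher (median −1.45). The lower share, 28.6%, is under the 31.3% of all named rows. Both encode enzymes that add malonyl groups to isoflavone glucosides: Glyma.18G258000 had 2.97 to 24.75 CPM in plot 4 and 13.64 to 182.8 CPM elsewhere (−2.12 ± 0.44), with the call lost without the 11:00 library of plot 4 (adjusted p = 0.0551), and Glyma.19G030800 was at −2.33 ± 0.64, with the call lost under 10 of 22 alternatives.

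Auxin genes were divided by family. Of 32 tested, 7 were higher and 2 lower, with a median of −0.49 that became 0.06 without plot 2. These shares are 21.9% and 6.25%, against 9.88% and 31.3% of all named rows. The 7 higher genes were all 6 loci matched to auxin-induced protein 5NG4, relatives of a vacuolar auxin transporter of Arabidopsis, and PIN9b, an auxin exporter. PIN9b (Glyma.09G251600) had 7.71, 19.13, 19.11 and 19.17 CPM in plot 4 and 0.550 to 6.48 CPM elsewhere, without overlap (2.32 ± 0.35, edgeR adjusted p = 0.00139). Among the 5NG4 loci, Glyma.13G077800 had 17.41, 12.6, 26.21 and 68.88 CPM against 0.723 to 12.68 CPM (2.64 ± 0.38). Glyma.15G227700 had 0.614 to 5.10 CPM in plot 4 and at most 0.261 CPM elsewhere (4.99 ± 0.61), and Glyma.14G151600 was at 2.48 ± 0.56, with the call lost under 9 of 22 alternatives. The lower members were an auxin transporter-like gene (Glyma.04G252300, −2.05) and an auxin-induced protein (Glyma.04G066300, −1.96).

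Flowering time genes gave 2 higher and 2 lower of 7 (28.6% each, against 9.88% and 31.3% of all named rows). Flowering locus T-like proteins are mobile signals that promote or delay flowering. Glyma.19G108100 had 11.42, 13.86, 22.12 and 26.98 CPM in plot 4 and 0.458 to 7.15 CPM elsewhere, without overlap (2.57 ± 0.54, edgeR adjusted p = 0.0104), a call lost without the 14:00 library (adjusted p = 0.06) or the 17:00 library (adjusted p = 0.0763) of plot 4. Glyma.08G363200, a second such gene, had 2.01 to 2.57 CPM against 0.156 to 1.46 CPM (1.92 ± 0.36; adjusted p = 0.0519 and 0.0732 without the 14:00 or 17:00 libraries of all plots). The 2 lower genes encode squamosa promoter binding-like factors: Glyma.06G238100 had 0.548 to 2.55 CPM in plot 4 and 2.17 to 20.4 CPM elsewhere (−2.47 ± 0.36), and Glyma.U025800 was at −2.73 ± 0.58, with the call lost without the 17:00 library of plot 4 (adjusted p = 0.0598) or with libraries of a plot treated as correlated (limma adjusted p = 0.105).

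**Figure D5:**
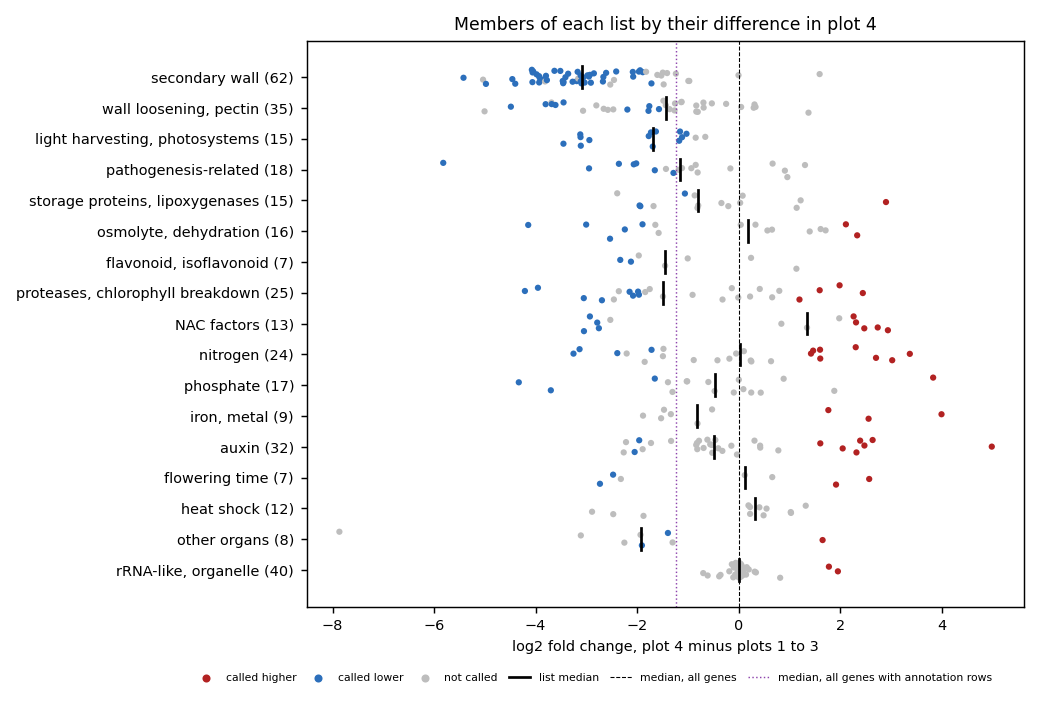
Log2 fold change (plot 4 minus plots 1 to 3) of every tested member of the gene lists shown, 1 point per gene (vertical spread within a list has no meaning; red called higher, blue called lower, grey not called). Black bars mark list medians, the dashed line marks the median of all genes (0.0163) and the dotted line that of the 931 named rows (−1.24); secondary wall genes have the lowest median, −3.09, and NAC genes the highest, 1.35.

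Some groups did not pass the test. Of 12 heat shock genes 0 passed in either direction (median 0.32), although 3 were higher with a term for each plot in the model. The only clock gene in the named rows, matched to PRR73 (Glyma.04G228300), was at 0.26, and PRR5 (Glyma.03G261300) at −0.01 ± 0.42. Neither of 2 jasmonate genes passed (median −0.89). Genes named in the study's text that did not pass included those for the Rubisco large subunit binding protein (Glyma.11G195900, Glyma.15G250500 and Glyma.20G019400, at −0.15 ± 0.16, 0.02 ± 0.15 and 0.24 ± 0.15), chlorophyllase (Glyma.10G003200, 0.08 ± 0.20) and PIP5K (Glyma.03G186300, 0.00 ± 0.15). A p that misses the threshold does not show that plots were alike. The aquaporin gene PIP2;4 (Glyma.11G146500) passed the adjusted p at −0.90 ± 0.23 (edgeR adjusted p = 0.0278) without reaching the fold threshold.

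Whether the course over the day differed in plot 4 was asked with the interaction of hour and plot 4. It was called for 0 of 36059 genes in edgeR (0% of those tested; smallest adjusted p 0.513; 1574 genes at an unadjusted p under 0.05), for 0 in limma-voom (1556 unadjusted) and for 60 in DESeq2's likelihood ratio test. The unadjusted counts of edgeR and limma-voom are both below the share of 0.05 that chance alone would give. The fit leaves 8 residual degrees of freedom. Genes that also differed between hours made up 52.8% of the higher and 38.3% of the lower genes, against 32.3% of all genes tested. The genes described next were picked by the rank of their interaction p, and the interaction was not called for any of them. Of the named genes with the smallest interaction p, the receptor-like kinase Glyma.06G319700 had 1.48, 4.98, 13.17 and 13.69 CPM from 8:00 to 17:00 in plot 4 and 0.313 to 1.95 CPM elsewhere. The unnamed locus Glyma.05G143000 had 2.02 CPM at 8:00 in plot 4, below all other libraries, and 37.56 CPM at 17:00, above all of them. Trehalose phosphate synthase Glyma.13G092500 stood at 28.89 CPM at 17:00 in plot 4 and at most 8.51 CPM elsewhere.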

How the data were processed

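Per the labels and the study's methods, polyA RNA from whole leaflets was made into TruSeq libraries and sequenced on 2 lanes; the lanes are not tied to libraries. The deposited values are whole-number read counts per gene, not normalized, which the authors made with CASAVA 1.8.2, Trimmomatic, TopHat2 and HTSeq on Williams 82 assembly 2, annotation 1. Strand settings are not given, so overlapping and near-identical genes are uncertain. All 56044 genes sit in 1 table, every column matched a sample title, and 36059 genes with at least 8 counts in 1 library were kept. Libraries of an hour were never near copies (lowest chi-square per gene 17.7).

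Counts were fitted with edgeR 4.0.16 (TMM, quasi-likelihood F test, time point and a plot 4 term, Benjamini-Hochberg over all genes kept) in R 4.3.3. DESeq2 1.42.0, limma 3.58.1, other scalings and filters, other terms for plot, and left-out plots, hours and libraries were tried as alternatives. log2 CPM for plots by hour used a prior count of 1. On simulated counts of 34865 genes for this comparison, the test recovered 75% of genes given a log2 change of 1 and 100% of those given 2 or 3, with 7 false calls. Recovery was scored on adjusted p and sign without the fold threshold, and changed genes averaged at least 1 CPM. Simulated libraries were independent, with a common dispersion and no effect of plot or hour. The false calls therefore do not cover differences between plots. Replicate number is the plot, so libraries with 1 number share a plot and day; their deviations correlated as given for pairs of libraries of a plot.

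Genes chosen for naming are the 10 largest in each direction (at least 10 CPM on the higher side, plot 4 outside the other 3 at all 4 hours), the same among genes with a name, loci in the study's text, the 3 largest called members of each list, and the 5 smallest interaction p with and without a name. Not all of them are described above. For genes chosen by position, separation of plot 4 from the other libraries partly restates that choice. A further 19 genes, and members named where a count was 5 or fewer, were chosen after their values were seen: the proteases Glyma.14G092800, Glyma.17G230700, Glyma.15G177800 and Glyma.14G085600, Glyma.01G214600, the transporters Glyma.13G116900, Glyma.18G127200 and Glyma.10G276700, Glyma.14G086300, Glyma.02G305400, Glyma.11G181100, Glyma.05G128000, the NAC genes Glyma.12G221400, Glyma.02G070000 and Glyma.08G173400, Glyma.12G109800, Glyma.05G180600, Glyma.09G251600 and Glyma.08G363200. The members and the 20 gene lists were chosen with earlier results of these data known, and the word search of 2 lists (clock, nitrogen) was corrected after values were seen. Gene names of 0 loci could be taken from the reference table, so names are those of the study's table (828 with a best match) and 18 loci of its text.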

Additional observations from a re-analysis of the deposited data

Results flagged for a closer look

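For 4 libraries of 1 hour, Dixon's ratio of the gap at one end to the whole range was compared with its 95% critical value. Chance flags about 1 in 20 such groups. Among 108 genes chosen for naming, the further 19 included, and 432 groups, 47 groups stood out, in 43 genes. Plot 4 was the library apart in 43 of the 47. Many of these genes were named for their difference in plot 4, so the count is a description. By hour, plot 4 stood apart for 6 named genes at 8:00, 14 at 11:00, 8 at 14:00 and 15 at 17:00.

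Some genes had plot 4 flagged on the high side at 1 hour. At 11:00 these were Glyma.14G004500, Glyma.13G004400, Glyma.15G227700 and Glyma.13G092500, and at 14:00 Glyma.16G151500 and Glyma.06G319700. At 17:00 they were Glyma.08G194900, Glyma.18G210500, Glyma.17G230700, Glyma.08G173400 and Glyma.08G363200, and at 8:00 Glyma.10G179200 and Glyma.04G023900. High flags at 2 hours were raised for the vacuolar processing enzyme Glyma.14G092800 (8:00 and 17:00) and the peptide transporter Glyma.13G116900 (14:00 and 17:00). Plot 4 could also be the highest library at hours without a flag.

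Plot 4 was flagged as lowest at 17:00 for the wall genes Glyma.12G173800, Glyma.06G065000 and Glyma.07G050600, the light-harvesting genes Glyma.16G165200, Glyma.16G165500, Glyma.02G080800 and Glyma.02G305400, and the proteinase Glyma.15G123800. At 11:00 it was flagged as lowest for both vegetative storage protein genes (Glyma.07G014500 and Glyma.08G200100), both glutaredoxin genes (Glyma.15G096600 and Glyma.17G023900), Glyma.17G138200, Glyma.09G238300, Glyma.19G030800, Glyma.18G258000 and Glyma.14G085600. At 14:00 this held for Glyma.03G222000, Glyma.15G217100, Glyma.17G210500, Glyma.18G250100 and Glyma.12G109800, and at 8:00 for Glyma.20G143600, Glyma.07G157100 and Glyma.U017900.

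Other plots stood apart for 2 hours in PRR5 (Glyma.03G261300; plot 2 lowest at 8:00, plot 1 highest at 14:00) and for 1 hour in Glyma.01G153500 (plot 3 highest at 8:00). The metal transport gene Glyma.20G063100 was flagged at 2 hours, with plot 2 lowest at 8:00 and plot 4 highest at 11:00. Among library measures, the total count of plot 4 was apart at 8:00 and the share of the 10 most abundant genes in plot 2 at 17:00. Among list sums, plot 4 was lowest for pathogenesis-related genes at 14:00 and flavonoid genes at 11:00, plot 3 for phosphate genes at 8:00, plot 1 for auxin genes at 17:00, and plot 2 for the clock gene at 2 hours, 8:00 and 14:00.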

How the results depend on the processing

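Each named call kept its sign under the alternatives that tested it. The excess of lower over higher calls did not hold throughout: the split was 617 and 618 with library totals, 280 and 249 with plot as a random effect, and 0 and 0 on plot means. Higher and lower calls (392 and 792) changed by less than 1.5 times with DESeq2 size factors, with no count filter or 1 CPM in 4 libraries, in limma-voom and DESeq2's Wald test, and without the 8:00 libraries. With the replicate block (a term for each plot), 543 genes were higher and 967 lower, 1172 of the 1184 calls were kept, and of the named calls that for Glyma.05G128000 was lost (−0.998). Library totals gave 617 higher. Leaving out 1 plot gave 303 to 401 higher and 513 to 1041 lower. Without the 11:00, 14:00 or 17:00 libraries, 227, 135 and 161 were higher and 256, 209 and 211 lower. Without the fold threshold 964 were higher and 1261 lower. The replicate block as a random effect left 249 lower, with 508 of the 1184 calls kept, and plot means left 0 and 0. Chosen after seeing the data, fits without the 11:00, 14:00 or 17:00 library of plot 4 gave 363, 377 and 297 lower and, for the last 2, 206 and 193 higher. Calls summed over the 3 pairs with plot 4 and the 3 among plots 1 to 3 were 4187 and 414, 7461 and 835 without the fold threshold, 1946 and 117 without 11:00, 1615 and 3 without 14:00, and 2107 and 50 without 17:00. The interaction gave 60 calls in DESeq2 and 0 in every edgeR and limma setting. Fewer libraries enter the fits that leave some out; the cause of the other changes was not tested. Of 84 called genes among those chosen for naming, 38 kept their call in every alternative that tested them (at most 22) other than plot means. DESeq2 gives some adjusted p as missing, and these stay out of lost calls. Genes under 1 CPM rest on few reads, which limits their fold changes.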

Other observations

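The hour at which a gene's mean over all plots was highest differed between the DE genes and all genes tested, as a description. Of the 392 genes higher in plot 4, 165 peaked at 17:00, 128 at 8:00, 79 at 14:00 and 20 at 11:00. Of the 792 lower genes, 286 had it at 11:00, 235 at 17:00, 175 at 8:00 and 96 at 14:00. Over all genes tested, 12235 were highest at 17:00, 11859 at 8:00, 6843 at 14:00 and 5122 at 11:00. Plot 4 itself enters these means.

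Neighbouring loci were DE in the same direction in 3 runs of at least 3 genes. A run on chromosome 5, from Glyma.05G126800 to Glyma.05G127000, was higher (log2 fold changes of 1.15 to 5.58). A run on chromosome 12, from Glyma.12G217300 to Glyma.12G217500, was lower (−2.53 to −1.31), and so was one on chromosome 13, from Glyma.13G216200 to Glyma.13G216400 (−3.15 to −1.64). The middle locus of the chromosome 12 run is the Sali3-2 match. Adjacent copies can share reads, and the sequences were not compared here.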
